A study of Mus musculus with 2 samples.

Results

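The enzymes of cholesterol synthesis work in sequence in different places of the cell, some soluble and some held in the membrane of the endoplasmic reticulum. The members were 8 enzyme genes, Hmgcs1, Idi1, Fdps, Fdft1, Sqle, Lss, Cyp51 and Dhcr7, taken by gene symbol from the transcript tables of both libraries, and all 8 were found among the 23329 genes of the files. The study compared RNA from wild-type C57BL/6 mouse brain, labelled whole brain, in total homogenate and in a fraction enriched for synaptosomes, the pinched-off nerve endings that form when brain is homogenised. The enriched fraction was the layer between 3% and 10% Percoll of a density gradient, and the series title names its aim as finding mRNAs enriched at synapses. Each fraction was 1 library, and the labels do not say how many brains went into it. No treatment or age is given in the labels, and both libraries carry the same wild-type genotype. Both sample titles also share the tag CT10, which was not interpreted here.

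Cells build cholesterol from acetyl-CoA. Soluble enzymes of the cytosol and peroxisomes first make isoprenoid diphosphates, and enzymes held in the membrane of the endoplasmic reticulum then join these to squalene, close the sterol rings and trim the sterol to cholesterol. SREBP transcription factors switch the genes of the whole route on when membrane sterol falls. In brain, cholesterol is made locally because plasma lipoproteins do not cross the blood-brain barrier, with oligodendrocytes building myelin and astrocytes exporting sterol to neurons. Hmgcs1 encodes cytosolic HMG-CoA synthase, Idi1 the isomerase of isopentenyl diphosphate and Fdps farnesyl diphosphate synthase, and these made up the 3 soluble members. Fdft1 encodes squalene synthase, Sqle squalene epoxidase, Lss lanosterol synthase, Cyp51 the cytochrome P450 that removes a methyl group from lanosterol and Dhcr7 a sterol reductase of the last steps, and these made up the 5 reticulum membrane members. The gene annotation in the authors' deposited table gave a reticulum term and a membrane term to all 5 of the membrane members and to 0 of the 3 soluble members.

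The division between the classes can be seen in the coding sequences. For each member, the stretch of 19 codons with the highest mean Kyte-Doolittle hydropathy, a scale on which oily amino acids score high, is shown 5′ to 3′ on the coding strand. Codons with T in the middle position, which encode hydrophobic amino acids only, are in capitals. The stretches came from GENCODE M21 transcripts on GRCm38, the assembly behind mm10, matched to the RefSeq transcript that the files list for each gene.
Hmgcs1: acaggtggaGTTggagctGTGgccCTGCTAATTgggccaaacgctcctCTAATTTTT
Idi1: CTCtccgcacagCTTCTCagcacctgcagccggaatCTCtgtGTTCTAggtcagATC
Fdps: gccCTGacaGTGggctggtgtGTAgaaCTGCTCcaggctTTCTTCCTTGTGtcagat
Fdft1: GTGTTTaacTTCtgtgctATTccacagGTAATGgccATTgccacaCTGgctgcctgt
Sqle: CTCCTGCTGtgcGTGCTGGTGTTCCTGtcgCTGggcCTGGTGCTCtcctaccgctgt
Lss: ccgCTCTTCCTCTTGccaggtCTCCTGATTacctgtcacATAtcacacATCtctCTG
Cyp51: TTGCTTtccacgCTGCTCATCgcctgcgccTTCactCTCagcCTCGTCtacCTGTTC
Dhcr7: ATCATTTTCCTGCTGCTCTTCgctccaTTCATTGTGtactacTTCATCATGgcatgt

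The most hydrophobic stretch scored 0.842 in Idi1, 1.38 in Fdps and 1.47 in Hmgcs1. It scored 1.54 in Lss, 1.76 in Fdft1, 2.25 in Cyp51, 2.26 in Sqle and 2.56 in Dhcr7, so the membrane members lay above all soluble ones. A mean of 1.6 over 19 residues is a usual mark of a membrane-spanning segment, and 4 of the 5 membrane members reached it. Lss, which dips into the membrane from one side, did not. The capitals separated the classes less fully. They marked 13 of 19 codons in Dhcr7, 12 in Sqle, 11 in Cyp51 and 10 in Lss. Among the soluble members they marked 7 in Idi1, 8 in Hmgcs1 and 9 in Fdps. Fdft1, a membrane member, had 8, as many as Hmgcs1 and fewer than Fdps. The stretch began at codon 26 of 503 in Cyp51, codon 27 of 572 in Sqle and codon 39 of 471 in Dhcr7, near the start of each protein. In Fdft1 it covered codons 285 to 303 of 416. A window nearer the end of that protein, centred on codon 394, scored 1.38, below 1.6. Whether either stretch of Fdft1 spans the membrane was not tested.

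The genes lie on mm10 at chr13:119690462-119708077 (Hmgcs1), chr13:8885606-8892396 (Idi1), chr10:76531627-76553934 (Lss), chr15:59315092-59331193 (Sqle) and chr7:143823167-143848410 (Dhcr7) on the plus strand. Fdps at chr3:89093588-89101967, Fdft1 at chr14:63145150-63177793 and Cyp51 at chr5:4080674-4104697 lie on the minus strand. The Cyp51 stretch lies in exon 1 at chr5:4104176-4104232 (minus strand) and the Sqle stretch in exon 1 at chr15:59315923-59315979 (plus strand). The Dhcr7 stretch lies in exon 4 at chr7:143837790-143837846 and the Hmgcs1 stretch in exon 4 at chr13:119700570-119700626, both on the plus strand. The other stretches cross an intron, which the printed sequence leaves out. The Fdft1 stretch runs over exons 8 and 9 of a GENCODE model with 10 exons, where the files' transcript has 8, at chr14:63151273-63152353 and the Fdps stretch over exons 3 and 4 at chr3:89095653-89099329, both on the minus strand. The Lss stretch runs over exons 3 and 4 at chr10:76533633-76535596 and the Idi1 stretch over exons 1 and 2 at chr13:8885956-8886747, both on the plus strand.

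**Figure D1:**
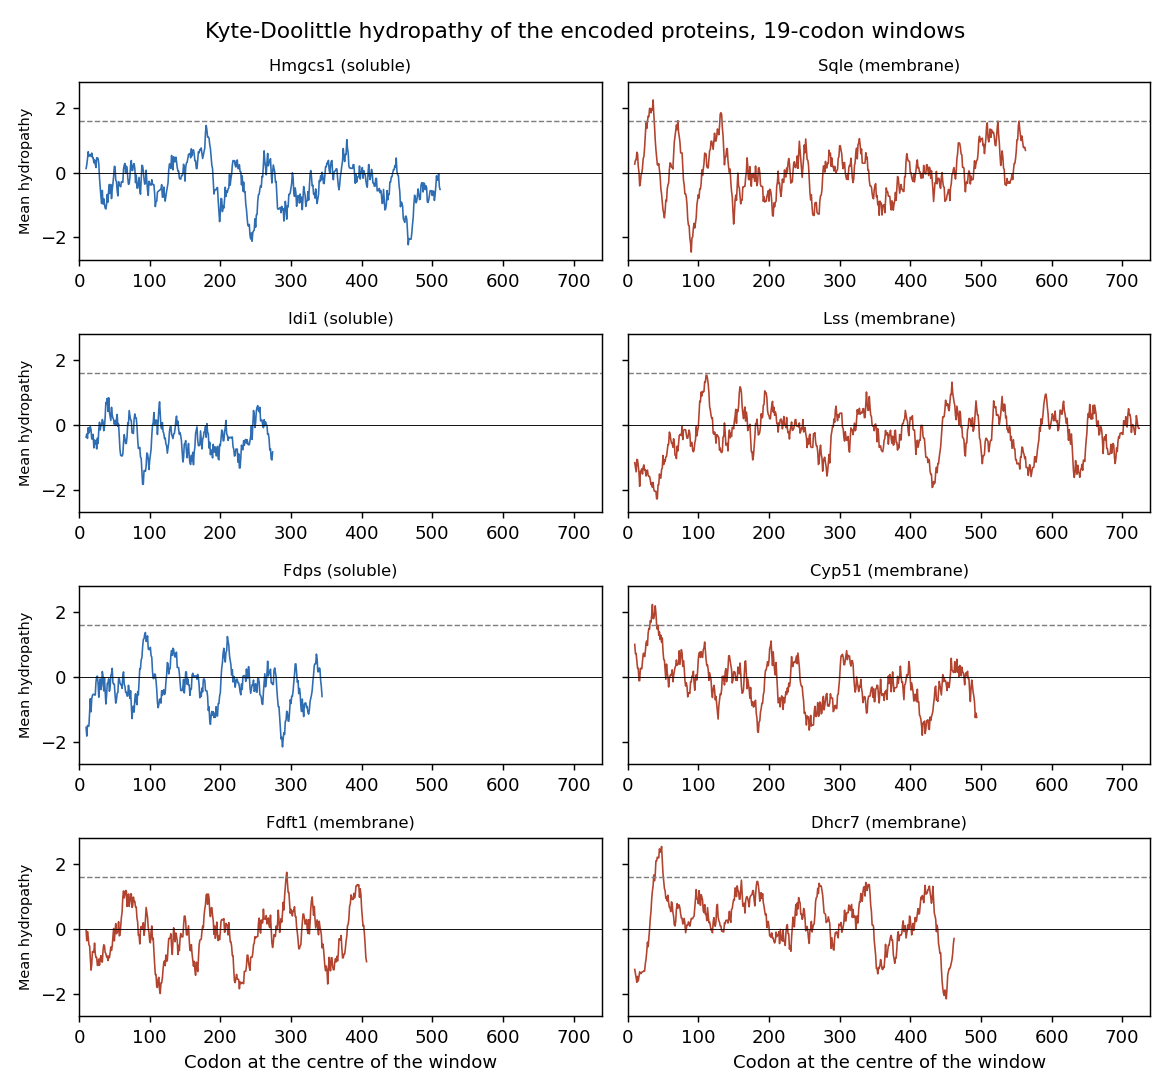
Mean Kyte-Doolittle hydropathy (y axis, scale units) over windows of 19 codons along the protein of each of the 8 members (x axis, codon at the window's centre), soluble members in blue and reticulum membrane members in red. The dashed line marks 1.6, which Cyp51, Sqle and Dhcr7 pass near the start of the protein and Hmgcs1, Idi1, Fdps and Lss do not reach.

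A shared feature outside the coding sequence was the CCAAT box. Promoters are shown here because the pathway is known for joint transcriptional control, in which CCAAT-binding NF-Y and GC-box-binding Sp1 act beside SREBP. RefSeq promoter windows on GRCm38.p6 (250 bases before to 50 after a transcript start) matched 5 of the 8 members, Hmgcs1, Idi1, Lss, Cyp51 and Dhcr7. The letters were searched on both strands. CCAAT was found in all 5 members and in 37.4% of 32851 windows of all genes, and the GC box GGGCGG in all 5 members and in 35.7% of windows. Counted by gene, since some genes have several windows, 41.1% of all genes held CCAAT and 38.2% held GGGCGG. In Dhcr7, which has 3 windows, CCAAT occurred only in the window of the start farthest downstream. CACCCCAC, the core of a sterol regulatory element, was found in 1 of the 5 members, Hmgcs1, against 2.87% of windows. Of the 17 pathway genes with a window, 2 held it, Hmgcs1 and Acat2. The longer SRE-1 consensus, which overlaps it, was found in 0 of 5, against 0.234%. Over the 17 of 22 pathway genes with a window, 16 held CCAAT, the exception being Acat2, and 15 held GGGCGG, the exceptions being Ggps1 and Pmvk. A match is a run of letters and not a measured binding site. Sterol elements with other letters were not searched for, so a window without a match may still hold one. The 250 bases before the start are printed for 2 soluble and 2 membrane members, with CCAAT (or ATTGG, the same box on the other strand) and CACCCCAC in capitals.
Hmgcs1: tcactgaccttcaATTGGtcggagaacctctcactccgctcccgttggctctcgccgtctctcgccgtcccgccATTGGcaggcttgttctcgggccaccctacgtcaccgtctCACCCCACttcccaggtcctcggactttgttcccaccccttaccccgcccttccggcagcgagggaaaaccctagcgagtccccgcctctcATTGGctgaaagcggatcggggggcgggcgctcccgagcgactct
Idi1: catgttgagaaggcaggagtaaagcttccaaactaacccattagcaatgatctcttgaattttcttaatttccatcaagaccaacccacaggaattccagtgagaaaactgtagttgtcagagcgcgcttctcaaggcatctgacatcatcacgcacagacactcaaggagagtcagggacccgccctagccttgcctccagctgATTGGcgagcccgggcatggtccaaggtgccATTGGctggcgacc
Lss: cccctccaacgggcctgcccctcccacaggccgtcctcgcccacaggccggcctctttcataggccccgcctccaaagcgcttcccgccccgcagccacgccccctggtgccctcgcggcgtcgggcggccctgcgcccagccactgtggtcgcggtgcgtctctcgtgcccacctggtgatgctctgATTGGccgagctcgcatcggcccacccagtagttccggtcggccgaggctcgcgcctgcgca
Cyp51: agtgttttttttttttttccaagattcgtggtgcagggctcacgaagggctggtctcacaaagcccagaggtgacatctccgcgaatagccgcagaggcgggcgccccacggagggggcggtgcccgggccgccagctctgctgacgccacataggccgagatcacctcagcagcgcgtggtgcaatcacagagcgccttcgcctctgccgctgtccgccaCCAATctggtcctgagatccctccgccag

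These windows lie at chr13:119690101-119690350, chr13:8885356-8885605 and chr10:76531355-76531604 on the plus strand and at chr5:4104698-4104947 on the minus strand. Hmgcs1 held 3 CCAAT boxes before its start, Idi1 2, and Lss and Cyp51 1 each.

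The homogenate library held 15210857 estimated counts and the synaptosome library 13709539. Ratios of synaptosome fraction over homogenate were scaled by TMM, which sets the typical gene near 1, and their intervals are exact 95% counting intervals. Neither fraction had a replicate, so no test was made, and every ratio compares these 2 libraries, and the intervals leave out the spread between animals and preparations. The rule of size for calling a gene higher or lower was a 2-fold ratio or more with a counting interval clear of a ratio of 1. The 14153 tested genes averaged 1 CPM (counts scaled to library size) or more over both libraries, and 12.8% of them were higher by this rule and 9.1% lower. Scaling set that split: with library totals every log2 ratio moved by -0.49, which put 636 genes higher and 3629 lower in place of 1807 and 1288. In a bulk fraction, fewer cells of a type and less RNA per cell cannot be told apart.

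All 8 enzyme mRNAs were detected well in both libraries, from 361 homogenate counts for Lss to 7085 synaptosome counts for Hmgcs1, and all 8 passed the 1 CPM filter. Every member had a log2 ratio above 0 under TMM scaling. By the rule of size 1 of 8 was higher, Cyp51, and 0 were lower. That share, 12.5%, was near the background of 12.8%. The median log2 ratio of the 8 was 0.90, against -0.01 over all genes tested and 0.04 over the 10107 genes with at least 10 CPM. Between the 1.5-fold and 2-fold bounds lay 5 members, Lss, Idi1, Hmgcs1, Dhcr7 and Sqle. At a bound of 1.5-fold, run under TMM only, 6 of 8 members were higher. That stood against 24% of all genes and 26.6% of those with at least 10 CPM. By that bound 0 of 8 were lower, against 20.9% and 17.7%. With the 2-fold bound, the genes of at least 10 CPM were higher in 13.9% of cases and lower in 5.72%. With library totals the log2 ratios of Hmgcs1, Idi1 and Lss were 0.47, 0.48 and 0.48, and of Dhcr7 and Sqle 0.35 and 0.12. These lay below 0.585, the log2 of 1.5-fold, while Cyp51 stood at 1.23 and the median of all genes at -0.51.

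Among the soluble enzymes, Hmgcs1 was by far the most abundant per length, with 279 TPM (a share of transcripts, corrected for their length) in the homogenate and 373 TPM in the synaptosome fraction. Its counts were 5684 and 7085, a ratio of 1.95 (95% counting interval 1.88 to 2.02). Idi1 stood at 66.8 TPM in the homogenate and 90.2 TPM in the synaptosome fraction, from 1185 and 1488 counts. Its ratio of 1.96 (1.82 to 2.12) was close to that of Hmgcs1, and their intervals overlapped. The isomerase has a muscle paralogue, Idi2, listed with 1 homogenate count and 0 synaptosome counts. Fdps, whose product feeds both the sterol branch and protein prenylation, had 138 TPM in the homogenate and 111 TPM in the synaptosome fraction, from 1019 and 761 counts. Its ratio was 1.17 (1.06 to 1.28), below both other soluble enzymes with no overlap of intervals. Fdps was the only member with a second transcript in the files, which made up 2.26% of its homogenate counts and 2.78% of its synaptosome counts.

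Among the membrane enzymes, squalene synthase and the lanosterol demethylase lay at opposite ends. Fdft1, the first committed step towards sterols, had 121 TPM in the homogenate and 85.7 TPM in the synaptosome fraction, from 2143 and 1413 counts. Its ratio of 1.03 (0.962 to 1.10) was the lowest of the 8, and its interval overlapped only that of Fdps. The last 774 of its 2863 exonic bases (chr14:63145150-63145923) overlap exons of Ctsb, a lysosomal protease gene on the opposite strand with 11026 and 17098 counts and a log2 ratio of 1.28. The kit keeps strand, but the sources used here do not give whether the counting used it, and the part of this overlap in the Fdft1 value was not tested. Sqle, a rate-limiting enzyme after squalene, had 90.2 TPM in the homogenate and 94.8 TPM in the synaptosome fraction, from 1532 and 1497 counts. Its ratio was 1.53 (1.42 to 1.64). Lss, which closes the sterol rings, was the least abundant member, with 18.8 TPM and 25.4 TPM from 361 and 455 counts. Its ratio was 1.97 (1.71 to 2.27). An uncharacterised gene, 4930483K19Rik, shares 188 exonic bases with Lss and was listed at 0 counts in both libraries.

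Cyp51 showed the widest gap between the fractions. It had 58.0 TPM in the homogenate and 131 TPM in the synaptosome fraction, from 1580 and 3334 counts, a ratio of 3.30 (3.10 to 3.50). Its ratio stood at percentile 97.4 of all genes tested. No other member's interval overlapped it. Dhcr7 had 45.3 TPM in the homogenate and 56.1 TPM in the synaptosome fraction, from 789 and 908 counts. Its log2 ratio of 0.85 (0.71 to 0.99) lay below those of Hmgcs1, Idi1 and Lss and above that of Sqle, with counting intervals that overlapped all 4.

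The order of levels per length changed between the fractions mainly through Cyp51. In the homogenate the order from high to low was Hmgcs1, Fdps, Fdft1, Sqle, Idi1, Cyp51, Dhcr7 and Lss, and no neighbours had overlapping counting intervals. In the synaptosome fraction Cyp51 stood second, after Hmgcs1, and Fdft1 stood sixth. There the intervals of Sqle, Idi1 and Fdft1 all overlapped each other, so the order among them was not resolved. The top and bottom of the order kept their distance: Hmgcs1 was 14.8 times Lss in the homogenate and 14.7 times Lss in the synaptosome fraction. Together the 8 mRNAs made up 0.0940% of all homogenate counts and 0.124% of all synaptosome counts.

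**Figure D2:**
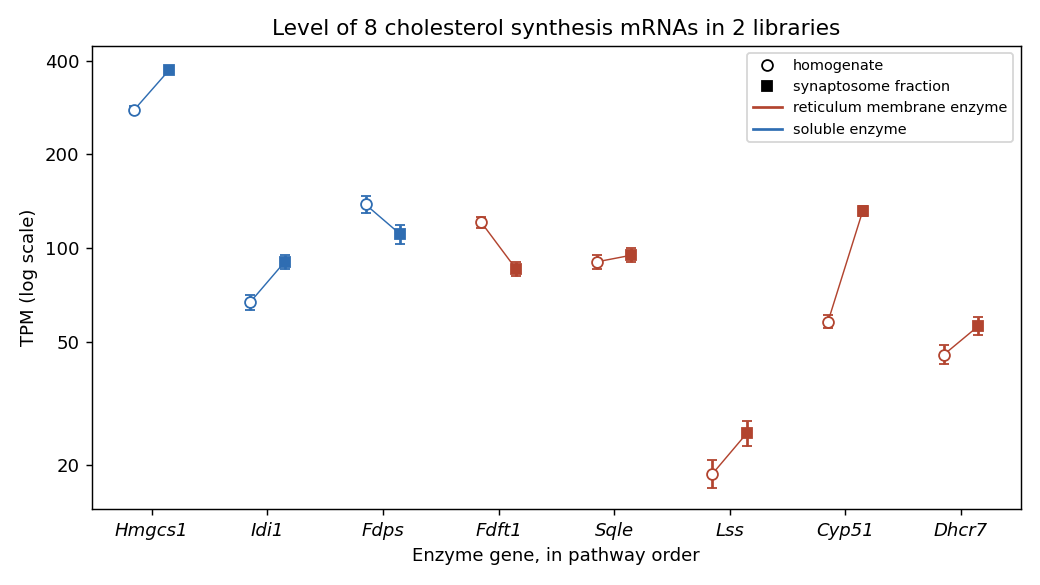
Level of the 8 members in TPM (log axis) in the homogenate (open circles) and the synaptosome fraction (filled squares), in pathway order, with bars for the exact 95% counting interval of each single library, and soluble enzymes in blue and membrane enzymes in red. Cyp51 goes from 58.0 to 131 TPM, while Fdps and Fdft1 have lower TPM in the synaptosome fraction.

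Membrane and soluble enzymes did not separate by their ratios. The median log2 ratio was 0.85 for the 5 membrane members, which ran from 0.04 to 1.72, and 0.96 for the 3 soluble members, which ran from 0.22 to 0.97. All 3 soluble values lay inside the range of the membrane values. The median of the membrane members minus that of the soluble members was -0.12. With means in place of medians the difference was 0.12, and with 1 member left out at a time it ran from -0.23 to 0.25, where leaving out Hmgcs1 or Idi1 gave a positive difference. With all 22 pathway enzymes, 14 of them in membranes, the difference of medians was 0.02. Across the files as a whole, 652 tested genes annotated to both reticulum and membrane had a median of 0.43, with 16.6% higher and 3.07% lower. The 447 tested genes annotated to the cytosol, without a reticulum or membrane term, had a median of -0.03, with 14.5% higher and 7.61% lower. All 3 soluble members lay above the median of the cytosolic genes. Of the membrane members, 4 of 5 lay above the median of the reticulum membrane genes, and Fdft1 lay below it.

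The other enzymes of the route, whose roles fill the steps between the members, ranged from below 0 to above 1 on the log2 scale. By the rule of size 2 of the 14 (14.3%) were higher, near the 12.8% of all genes, and 0 were lower. The median log2 ratio was 0.28. Both calls were lost with library totals (0 higher, 1 lower) and with TPM (0 higher, 2 lower). Of all genes, 4.49% were higher and 25.6% lower with library totals, and 3.99% and 27.6% with TPM. Sc5d, a sterol desaturase, was among the enzymes higher by TMM and went from 64.6 to 90.9 TPM, a ratio of 2.04 (1.87 to 2.23). Its interval overlapped those of Lss, Idi1 and Hmgcs1, which lay just under the 2-fold bound.

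Of the mevalonate steps, Mvk, mevalonate kinase, had a log2 ratio of 0.92 (0.69 to 1.15) and Mvd, the decarboxylase, one of 0.84 (0.62 to 1.07), and both intervals overlapped those of Hmgcs1 and Idi1. Pmvk, the kinase between them, stood lower at 0.40 (0.22 to 0.58), with no overlap. Acat2, which makes acetoacetyl-CoA, stood at -0.16 (-0.31 to -0.01). Ggps1, which draws farnesyl diphosphate off towards protein prenylation, had the lowest ratio of the 22 at -0.57 (-0.79 to -0.36), from 583 and 251 counts.

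The enzymes that work on lanosterol and later sterols differed among themselves. Tm7sf2 and Lbr, both sterol reductases, had log2 ratios of 0.12 (-0.15 to 0.39) and -0.50 (-0.85 to -0.16). Nsdhl and Hsd17b7, which act together in removing methyl groups, had -0.06 (-0.23 to 0.11) and -0.05 (-0.29 to 0.19), and Ebp, a sterol isomerase, had 0.16 (-0.09 to 0.42). Msmo1, a methylsterol oxidase listed in the files as Sc4mol, had 0.68 (0.59 to 0.77) from 1812 and 1859 counts. The interval of Msmo1 lay above 0, that of Lbr below 0, and those of Tm7sf2, Nsdhl, Hsd17b7 and Ebp included 0.

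**Figure D3:**
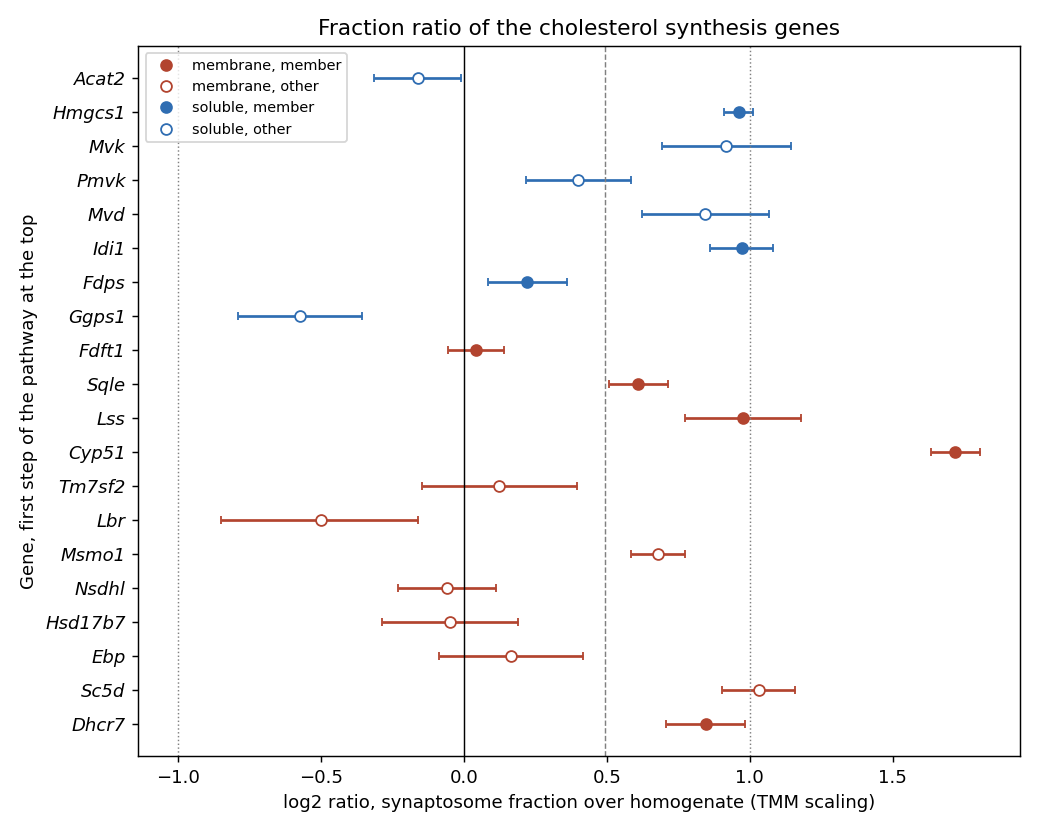
Log2 ratio of synaptosome fraction over homogenate (x axis, TMM scaling) for 20 pathway enzymes from the first step at the top, with exact 95% counting intervals, members filled, other enzymes open, membrane enzymes in red and soluble ones in blue. Dotted lines mark 2-fold, the solid line 0, and the dashed line the point that becomes 0 under library totals; Cyp51 lies farthest right at 1.72 and Ggps1 farthest left at -0.57.

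A change of scaling shifts all members by nearly the same amount, so it sets which lie above 0. Cyp51, Lss, Idi1, Hmgcs1, Dhcr7 and Sqle had log2 ratios above 0 under all 5 scalings tried. Sqle came down to 0.07 with deposited TPM, and Cyp51 to 1.18. Fdps and Fdft1 were above 0 in 3 of 5 scalings. With library totals Fdps stood at -0.27 and Fdft1 at -0.45, while the median of all genes stood at -0.51.

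**Figure D4:**
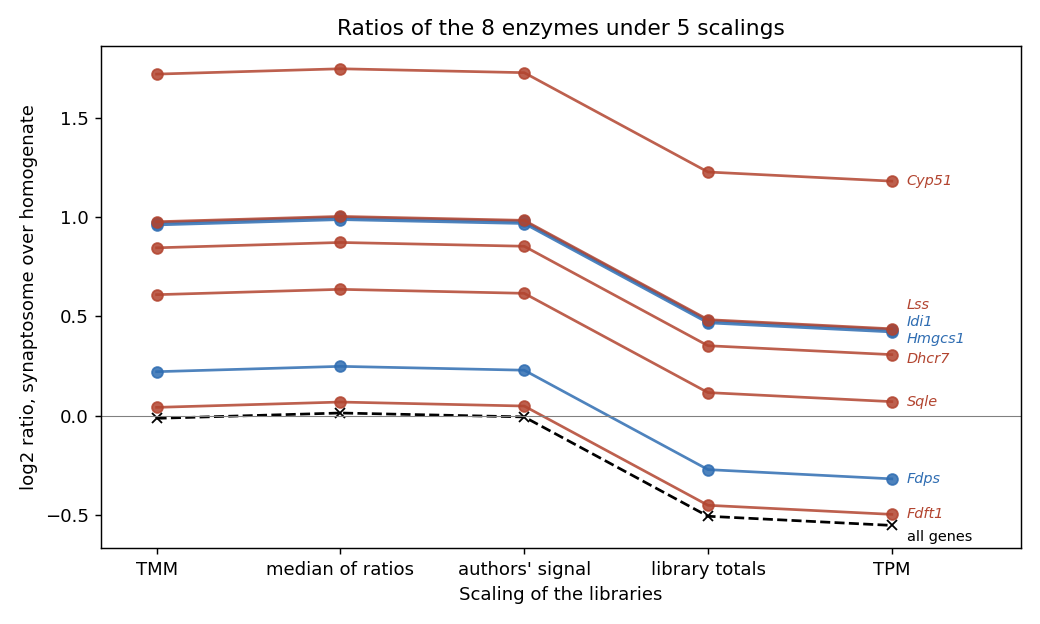
Log2 ratio of the 8 members (y axis) under 5 ways of scaling the 2 libraries (x axis), membrane enzymes in red, soluble ones in blue, and the median of the 14153 genes as a dashed line. All lines drop together under library totals and TPM, where Fdps and Fdft1 lie below 0 and Cyp51 remains above 1.

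The SREBP control genes were measured in the same pair of libraries. By the rule of size 2 of the 7 (28.6%) were higher, beside 12.8% of all genes, and 0 were lower, and their median log2 ratio was 0.69. With library totals 0 of the 7 were higher, beside 4.49% of all genes, and their median was 0.20. Srebf2, the factor that drives the cholesterol genes, was 2.12-fold higher (2.01 to 2.24), and Srebf1, which mainly drives fatty acid genes, 2.46-fold higher (2.21 to 2.73). Insig1 and Insig2, which hold SREBP back in the reticulum, had ratios of 1.56 (1.46 to 1.68) and 1.15 (1.02 to 1.29). Among 26 genes for reticulum chaperones and translocation, the median was 0.80, and 10 (38.5%) were higher, beside the same 12.8%, and 0 lower. With library totals only Hspa5 of the 26 was higher, beside 4.49% of all genes. Hspa5, the chaperone BiP, was 2.86-fold higher, Calr, calreticulin, 2.34-fold, and Hsp90b1 2.06-fold. Spcs1, a signal peptidase subunit, had the lowest log2 ratio of that list at -0.31 (-0.46 to -0.17).

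Markers of cell types also differed between the libraries, and their counts stand beside 12.8% of all genes higher and 9.1% lower. Of 12 astrocyte markers 10 (83.3%) were higher and 0 lower, with a median log2 ratio of 1.76. Their summed level was 6587 TPM in the homogenate and 18970.3 TPM in the synaptosome fraction. Sparcl1 was the most abundant at 3.66-fold higher. Of 12 oligodendrocyte markers 2 (16.7%) were higher, near the share of all genes, and 0 were lower, with a median of 0.07. Their sums were 10267 and 22219 TPM, of which Mbp alone gave 4682 and 17154 TPM. Of 13 neuron markers 5 (38.5%) were lower and 1 (7.69%) was higher. Their median was -0.88, their sums were 10551 and 7546 TPM, and Snap25 was 2.67-fold lower. The higher marker was Camk2a, a kinase of excitatory neurons, at 3.61-fold (1183 and 2896 TPM), and Slc17a7 and Syt1 had ratios of 1.91 and 1.47. These 3 were picked out after their values were seen. None of the markers of these 3 cell types was at 0 in either library. Of 10 endothelial markers 8 (80%) were lower, with a median of -2.78 and sums of 332 and 48.9 TPM, and Ly6c1 was 11.0-fold lower. Of 10 microglial markers 4 (40%) were higher, with a median of 0.82 and sums of 583 and 838 TPM. The precursor list held 6 markers of oligodendrocyte precursors or their wider lineage. Of these 2 (33.3%) were higher, with a median of 0.96 and sums of 285 and 361 TPM. Olig1 was 2.48-fold higher, and log2 ratios ran from -0.72 for Sox10 to 1.63 for Cspg4. Of 7 choroid plexus and ependymal markers 6 passed the filter, of which 2 (33.3%) were lower, with a median of -0.29. The 7 summed to 1712 and 707 TPM, and Ttr was 2.89-fold lower. With library totals, 7 astrocyte, 2 microglial, 2 oligodendrocyte, 1 precursor and 1 neuron marker were higher, beside 4.49% of all genes. Lower by that scaling were 10 endothelial, 8 neuron, 3 choroid plexus and ependymal, 2 oligodendrocyte and 1 precursor marker, beside 25.6%. The oligodendrocyte median became -0.42 and the astrocyte median 1.27.

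All 5 blood markers were lower, with sums of 1513 and 112 TPM, Hba-a1 8.44-fold lower and Hba-a2 listed at 0 counts in the synaptosome library. All 5 nuclear noncoding RNAs that passed the filter were lower as well, with Meg3 4.52-fold lower, and Xist, which did not pass, had 0 and 2 counts. Neuron markers thus went both ways, with a median log2 ratio below 0, and the astrocyte median lay above that of the 8 enzymes. The part of these cell types in the enzyme ratios was not tested.

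**Figure D5:**
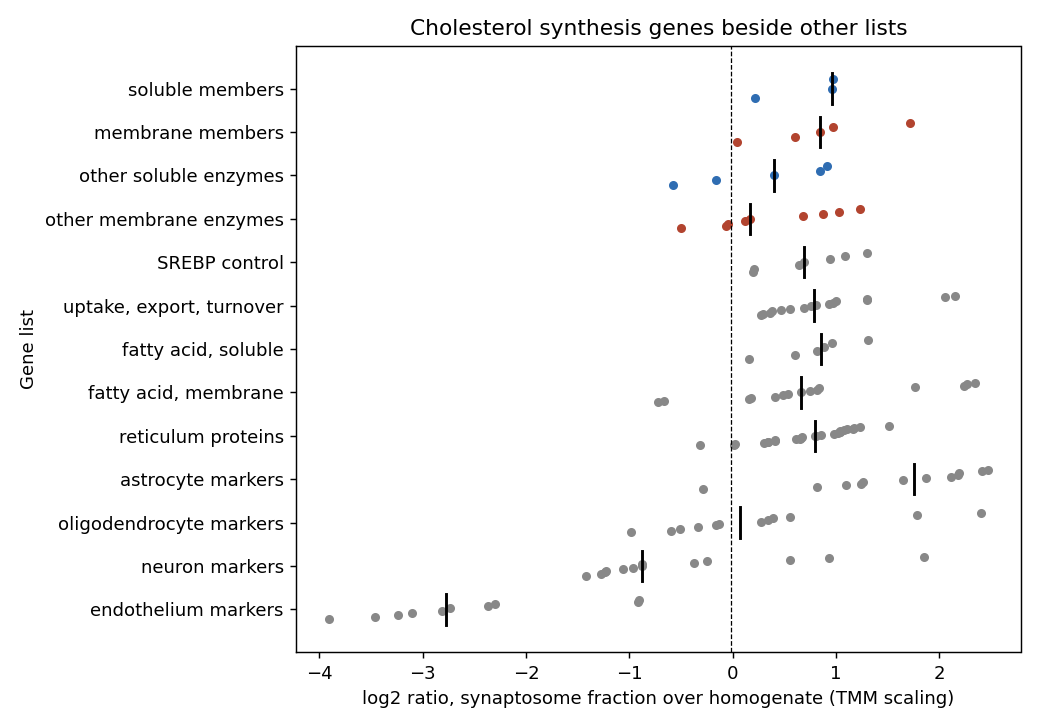
Log2 ratio of synaptosome fraction over homogenate (x axis) for each gene (points) of 13 lists, with the list's median as a bar and the median of all 14153 genes as a dashed line. The soluble and membrane members overlap, with medians of 0.96 and 0.85. Medians were 0.07 for oligodendrocyte markers, 0.80 for reticulum proteins and 1.76 for astrocyte markers. Among the lists not drawn, the microglial markers had a median of 0.82 and the markers of oligodendrocyte precursors or their lineage 0.96.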

How the data were processed

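The authors deposited expected counts (estimates that can be fractional) and TPM for each of 30383 transcripts per library, and a table of 1 signal value per gene. The submitters' processing notes name build mm10, RSEM 1.2.5, TopHat 1.3.3, edgeR 3.0.6 and FastQC, without roles in the sources used here. Per the labels, reads were 100 bases, paired or single. Dividing deposited signal by summed expected counts gave 0.7983 (homogenate) and 1.2527 (synaptosome fraction), within 0.5% for 97.06% and 97.26% of genes.

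Expected counts were summed per gene symbol, rounded and scaled by TMM (edgeR 4.0.16, R 4.3.3). The filter was a mean of at least 1 CPM by library totals. Intervals are Clopper-Pearson (95%), cover counting error only, and were run on simulated counts. Those counts followed the counting model that the intervals assume, so they cannot show how the intervals hold for these estimated counts. PCR copies are not independent molecules. Python 3.11.15, numpy 2.4.6, scipy 1.17.1, pandas 2.3.3 and matplotlib 3.10.9 were used. Alternatives were median-of-ratios size factors (DESeq2 1.42.0), library totals, TPM, signal, other filters, the largest transcript and other folds. The rule named all 22 pathway enzymes and, from further lists, the 2 most abundant genes and those of highest and lowest ratio (from marker lists, the most abundant). Some genes under this rule are not reported here by name, though list counts and medians include them. Of the 174 genes listed, 5 were found under an older symbol. The members and lists were chosen with earlier results of these data known.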

Additional observations from a re-analysis of the deposited data

How the results depend on the processing

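No paired analysis was possible because each fraction is 1 library. The count of members at least 2-fold higher was 1 by TMM and 2 with median-of-ratios size factors (Cyp51 and Lss). With a bound of 1.5-fold, run under TMM only, the count higher was 6. It was 1 under every other alternative run, and the count of lower members was 0 throughout. Of the 14 other enzymes, 2 were higher and 0 lower by TMM. Library totals gave 0 higher and 1 lower, beside 4.49% and 25.6% of all genes. TPM gave 0 higher and 2 lower, beside 3.99% and 27.6%. The median of the 14, 0.28, became -0.21 with library totals and -0.26 with TPM. TPM also put 565 of all genes higher and 3913 lower. The difference of medians between membrane and soluble members, -0.12, was 0.12 with means, 0.25 without Hmgcs1 and 0.25 without Idi1, and ran from -0.23 to 0.02 under all other alternatives run. Depth limits Lss most, with 361 and 455 counts. No replicate was at hand to leave out.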

Other observations

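Genes of sterol uptake, export and turnover were measured in the same libraries. By the rule of size 5 of 16 were higher (31.2%), beside 12.8% of all genes, and 0 were lower, beside 9.1%, and their median log2 ratio was 0.79. With library totals 2 of the 16 were higher, beside 4.49% of all genes. The effect of library totals on this and the other further lists was examined after seeing the data. Apoe, the main sterol carrier that astrocytes secrete, was 4.18-fold higher (4.10 to 4.25), at 2051 TPM in the homogenate and 5895 TPM in the synaptosome fraction. Lrp1, a receptor that takes up such particles, was 4.46-fold higher (4.32 to 4.60). Lrp8, another lipoprotein receptor, had a ratio of 1.21 (1.12 to 1.31). Cyp46a1, the neuronal enzyme that turns cholesterol into a form that leaves the brain, had 299 TPM and 404 TPM and a ratio of 1.96 (1.88 to 2.05), close to that of Hmgcs1.

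Fatty acid synthesis, which SREBP also controls, gave another set of soluble and membrane enzymes. Of 6 soluble enzymes 1 was higher (16.7%), with a median log2 ratio of 0.85, and of 15 membrane enzymes 4 were higher (26.7%), with a median of 0.66, beside 12.8% of all genes. With library totals 0 of the 6 soluble enzymes were higher. Of the 15 membrane enzymes 4 were higher and 2 lower by that scaling, beside 4.49% and 25.6% of all genes. Scd1 and Scd2, desaturases of the reticulum membrane, were 5.10-fold (4.94 to 5.27) and 3.41-fold (3.36 to 3.46) higher, and Scd2 reached 1798 TPM in the synaptosome fraction. Tecr, the last reductase of chain elongation, had a ratio of 1.33, and Elovl1, an elongase, had a log2 ratio of -0.72 (-0.97 to -0.49). Among the soluble enzymes Me1, malic enzyme, was 2.49-fold higher (2.32 to 2.66), while Acly, which supplies acetyl-CoA to both routes, had a ratio of 1.12 (1.05 to 1.18). The means were 0.81 for the membrane enzymes and 0.79 for the soluble ones, the opposite order to the medians.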
